A study of Mus musculus with 13 samples.

Results

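Glutathione and the transcription factor NRF2 stand at the centre of the cell's defence against peroxides and reactive electrophiles, and the genes of that system are described here across mouse mammary tumours and normal glands. The set was chosen by gene symbol in the deposited count table. It holds the cytosolic glutathione S-transferases of the alpha, mu, pi, theta, omega and zeta classes, the microsomal transferases (Mgst), the glutathione peroxidases (Gpx), the peroxiredoxins (Prdx) and the thioredoxin reductases (Txnrd). Nfe2l2, Keap1, Nqo1, Hmox1, Gclc, Gclm, Gss, Gsr, Srxn1 and Txn1 were added by name. In all, 51 of 38279 symbols met the rule, and 45 of them had enough reads to be tested. The other 6 members (Gpx5, Gpx6, Gsta1, Gsta2, Gstm3 and Gstt4) had summed counts of 2 to 71 over all libraries.

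RNA was sequenced from 6 mammary tumours of Cre-positive mice, in which mating at 12 weeks of age induced Fbxw7 excision, and from 4 wild-type glands, taken whole from Cre-negative mice mated at the same age. The stated end point for the animals was a tumour that could be felt or 40 weeks after pregnancy. Tumours 1 to 6 were taken at 25, 32, 39, 19, 53 and 25 weeks of age. Glands 1 to 3 were taken at 20 weeks of age and gland 4 at 40 weeks. With mating at 12 weeks, all 4 glands were therefore taken sooner than 40 weeks after pregnancy. Fbxw7 is the substrate-recognition part of a ubiquitin ligase. The labels used here do not name the promoter that drives Cre or the Fbxw7 allele, and genotype, tumour state and age differ between the groups at once. Levels are CPM, the read count scaled to a fixed library size after TMM adjustment between libraries. They compare 1 gene between libraries and not different genes with each other, because gene length is not taken into account.

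NRF2, the product of Nfe2l2, is held at a low level by KEAP1, an adaptor that hands it to the CUL3 ubiquitin ligase. When electrophiles or peroxides modify KEAP1, NRF2 accumulates and activates genes for glutathione synthesis, quinone reduction and thioredoxin recycling through antioxidant response elements in their promoters and enhancers. Glutathione is made from glutamate, cysteine and glycine, is used by transferases and peroxidases, and is recycled from its oxidised form by glutathione reductase. In the mammary gland these enzymes occur in the epithelium and in the fat pad, which makes up much of a whole gland.

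Total counts were 34865913 to 48325044 in the tumours and 13723065 to 48353114 in the glands. The redox genes together took 0.106% to 0.705% of the counts in tumours and 0.291% to 0.811% in glands. The lowest value in each group came from a library filled by other transcripts. In tumours 1 and 6, 18 salivary gland markers took 45.0% and 17.6% of the counts, against at most 0.0448% in the other tumours. Mitochondrial and skeletal muscle transcripts took 37.5% and 9.02% of the counts of gland 4, against 14% and 1.69% or less in glands 1 to 3. The labelled tissues differed in their markers: summed adipocyte markers lay between 40.8 and 1503 CPM in tumours and between 7946 and 32260 CPM in glands, with 12 of 13 lower in tumours. Summed luminal epithelial markers lay between 1752 and 4084 CPM in tumours and between 458 and 766 CPM in glands, with 8 of 10 higher. In bulk tissue, fewer cells of a type and less RNA per cell cannot be told apart, and the part that tissue make-up has in the results below was not tested.

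For the sequence around the gene starts, the 250 bases before each annotated start were searched for the antioxidant response element core TGACNNNGC on both strands. RefSeq windows of build GRCm38.p6, another build than the mm9 named in the submitters' processing notes, matched 45 of the 51 members. Gclc, Gsr, Hmox1, Gsta4, Gstt2 and Prdx6 had no window and were not searched. The core occurred in 8 of these 45 genes (17.8%), against 11.5% of all 27018 genes with a window. The 8 were Gclm, Gsta3, Gstm5, Gstm7, Mgst1, Nfe2l2, Prdx1 and Txnrd1, and none of the 13 members that passed the test below was among them. Prdx1 and Gclm are printed as matches. Nqo1 and Gpx2 are printed because they had the largest positive fold changes among the members, and neither window held the core. Capitals mark the core, which lay on the opposite strand in both matches, and in Prdx1 it overlapped the AP-1 site TGACTCA.
Prdx1, chr4:116685349-116685598, plus strand: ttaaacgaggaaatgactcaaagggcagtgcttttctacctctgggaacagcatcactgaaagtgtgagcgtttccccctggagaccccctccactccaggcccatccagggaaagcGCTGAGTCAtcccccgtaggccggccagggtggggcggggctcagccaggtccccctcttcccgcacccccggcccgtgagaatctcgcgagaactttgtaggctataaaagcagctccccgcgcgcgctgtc
Gclm, chr3:122245307-122245556, plus strand: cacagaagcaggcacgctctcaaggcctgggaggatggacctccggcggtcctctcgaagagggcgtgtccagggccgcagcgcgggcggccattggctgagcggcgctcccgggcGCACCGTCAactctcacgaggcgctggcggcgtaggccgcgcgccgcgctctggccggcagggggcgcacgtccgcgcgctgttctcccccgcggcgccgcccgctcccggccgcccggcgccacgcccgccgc
Nqo1, chr8:107403206-107403455, minus strand: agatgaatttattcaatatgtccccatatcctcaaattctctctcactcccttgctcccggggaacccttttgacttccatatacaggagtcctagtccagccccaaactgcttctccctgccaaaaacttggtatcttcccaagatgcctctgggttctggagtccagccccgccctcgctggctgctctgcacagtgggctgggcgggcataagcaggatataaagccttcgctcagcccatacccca
Gpx2, chr12:76795555-76795804, minus strand: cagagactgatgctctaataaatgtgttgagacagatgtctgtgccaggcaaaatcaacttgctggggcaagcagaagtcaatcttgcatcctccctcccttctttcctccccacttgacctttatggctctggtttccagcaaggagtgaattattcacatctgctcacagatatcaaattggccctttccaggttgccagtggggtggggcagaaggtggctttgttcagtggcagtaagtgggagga
The core lay 133 to 125 bases before the start in Prdx1 and 134 to 126 bases before it in Gclm. A match in such a window is a description and no evidence of binding, and more distant elements were not searched.

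Across the whole set, more members were lower than higher in tumours. Of 45 tested members, 10 fell and 3 rose (two-sided quasi-likelihood test of edgeR, called at p below 0.05 after Benjamini-Hochberg adjustment over 20101 genes). The count was 6 without gland 1 and 8 without gland 2, and 19 without tumours 1 and 6. The calls over all genes moved too, to 1053 of 21114, 1496 of 20833 and 4255 of 19585 in these 3 fits. Gland 1 was the highest gland for 34 of the 45 members, and gland 4 the lowest for 23. The members summed to 7531 CPM in gland 1 and to 5017 to 5179 CPM in glands 2 to 4. The 13 calls are 28.9% of the tested members, where 15.1% of all tested genes were called, 6.89% higher and 8.19% lower (1384 and 1646 genes). The split over all genes was 1809 higher and 1313 lower with upper-quartile scaling, and 1067 higher and 2007 lower with limma-voom. The members split 5 higher and 10 lower in the first case and 2 and 14 in the second. The median log2 fold change of the members was -0.53, against 0.17 over all tested genes. In 10 members every tumour lay below every gland and in 1 every tumour lay above every gland, where 7.5% and 6.54% of all genes did so. The falls were in transferases (Gstz1, Gstp2, Gstm1, Gstm4, Gstt1, Mgst2 and Mgst3), peroxidases (Gpx3 and Gpx8) and mitochondrial thioredoxin reductase (Txnrd2). The rises were in Gpx2, Prdx4 and Gstt3. Several cell type marker lists moved as well. Of the tested markers, 12 of 13 adipocyte, 8 of 12 skeletal muscle and 4 of 9 endothelial genes were called lower. In the other direction, 8 of 10 luminal and 4 of 11 salivary genes were called higher. Every other list had at most 2 calls, though some had large median differences. The median log2 fold change was -3.86 for T and NK cell, -4.08 for B cell and -1.66 for fibroblast markers. Summed T and NK cell markers were 23.7, 642.5, 552 and 4.01 CPM in glands 1 to 4, against 4.78 to 95.2 CPM in tumours. B cell markers summed to 13.2, 415, 446 and 1.78 CPM in the same order, against 3.47 to 144 CPM. The part of these shifts in the calls of the members was not tested.

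**Figure D1:**
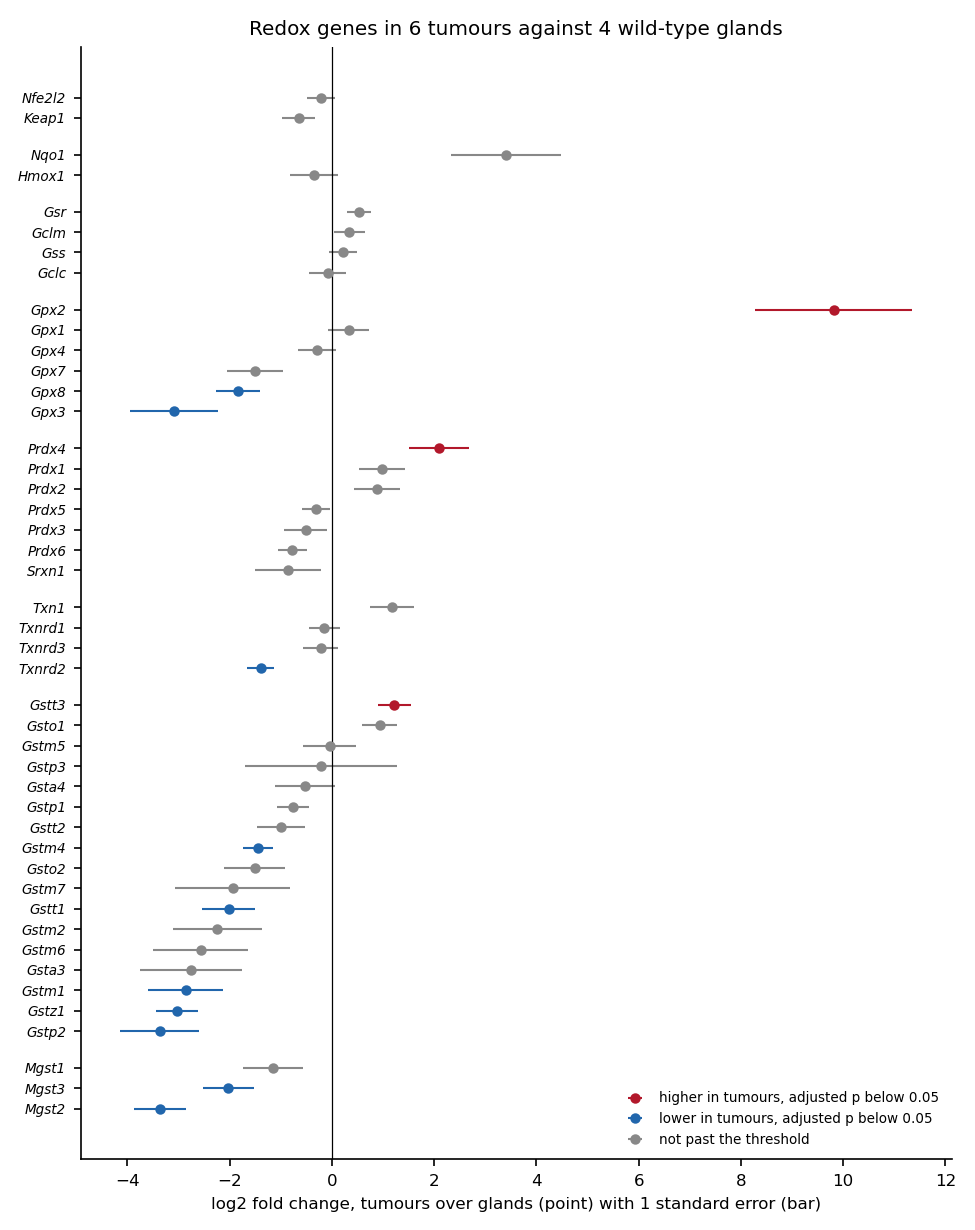
Log2 fold change of tumours over glands for the 45 tested members (points) with 1 standard error (bars), grouped by role. Most transferases and all 3 microsomal transferases lie left of 0, and Gpx2 stands at 9.81.

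Neither the factor NRF2 nor its sensor was called, and at an unadjusted p below 0.05 the count was 0 with edgeR and with DESeq2 and 1 (Keap1, lower) with limma-voom. Nfe2l2 was at 33.9, 56.9 and 73.0 CPM in tumours (lowest, median and highest), against 77.9, 56.5, 58.5 and 64.3 CPM in glands 1 to 4. The groups overlapped, with 3 of 6 tumours below every gland (log2 difference -0.22 ± 0.27, SE; adjusted p = 0.590, edgeR). Keap1 was at 14.9, 34.4 and 48.3 CPM in tumours, against 61.9, 46.9, 45.4 and 56.0 CPM in glands 1 to 4. Tumour 2 alone reached the range of the glands, and tumour 3 was the lowest (log2 difference -0.65 ± 0.32, SE; adjusted p = 0.173, edgeR). Tumour 3 was also the tumour with the highest Nfe2l2.

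Nqo1, the quinone reductase often used to report NRF2 activity, differed widely between tumours. Tumours 1 to 6 were at 5.07, 79.4, 326, 144, 23.2 and 41.8 CPM, against 6.22, 4.48, 4.01 and 24.6 CPM in glands 1 to 4. Tumours 2, 3, 4 and 6 lay above every gland, tumour 5 lay just below gland 4, and tumour 1 lay among glands 1 to 3. The means were 103 ± 120 CPM in tumours (SD, n = 6) and 9.83 ± 9.90 CPM in glands (SD, n = 4), with a log2 difference of 3.40 ± 1.08 (SE; adjusted p = 0.0543, edgeR), which missed the threshold. It passed without gland 4 (log2 fold change 4.35, adjusted p = 0.0463), without tumour 1 (3.64, adjusted p = 0.0248), without tumour 5 (3.61, adjusted p = 0.0498) and with DESeq2 (adjusted p = 0.00202). Without tumours 1 and 6 it was 3.86 (adjusted p = 0.0175). Nqo1 missed the threshold with limma-voom (3.05, adjusted p = 0.0958) and with age as a covariate (3.36, adjusted p = 0.0694). It also missed without tumour 3 (2.59, adjusted p = 0.0848) and without gland 1, 2 or 3 (adjusted p = 0.150, 0.139 and 0.130). With other scaling factors or filters in edgeR the adjusted p was 0.0504 to 0.0591.

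Hmox1, which breaks down heme, did not share that pattern. It was at 7.37, 20.2 and 47.2 CPM in tumours, against 34.0, 31.9, 33.2 and 13.8 CPM in glands 1 to 4. Tumour 6 was highest and tumour 2 lowest, and the log2 difference was -0.36 ± 0.47 (SE; adjusted p = 0.608, edgeR).

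None of the 4 genes of glutathione synthesis and recycling was called by edgeR, none passed under any of the 19 alternatives, and 0 had an unadjusted p below 0.05 with edgeR or limma-voom and 1 with DESeq2. Gclc, the catalytic subunit of glutamate-cysteine ligase, was at 11.2, 16.5 and 36.7 CPM in tumours, against 26.3, 20.6, 21.4 and 18.1 CPM in glands 1 to 4. Tumours 3 and 5 lay above every gland and tumours 1, 2 and 6 below. Gclm, its modifier subunit, was at 24.0, 39.2 and 68.7 CPM in tumours, against 40.3, 31.9, 32.2 and 30.5 CPM in glands 1 to 4. Here tumours 2, 4 and 5 lay above every gland, so the tumours with high Gclc were not all those with high Gclm. Gsr, glutathione reductase, came nearest to a separation, with 5 of 6 tumours above every gland. It was at 53.1 ± 11.4 CPM in tumours (SD, n = 6) and 36.9 ± 3.31 CPM in glands (SD, n = 4), a log2 difference of 0.52 ± 0.24 (SE; adjusted p = 0.150, edgeR). Gss, glutathione synthetase, averaged 17.3 ± 2.72 CPM in tumours and 14.9 ± 4.94 CPM in glands (SD, n = 6 and 4; adjusted p = 0.605, edgeR).

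**Figure D2:**
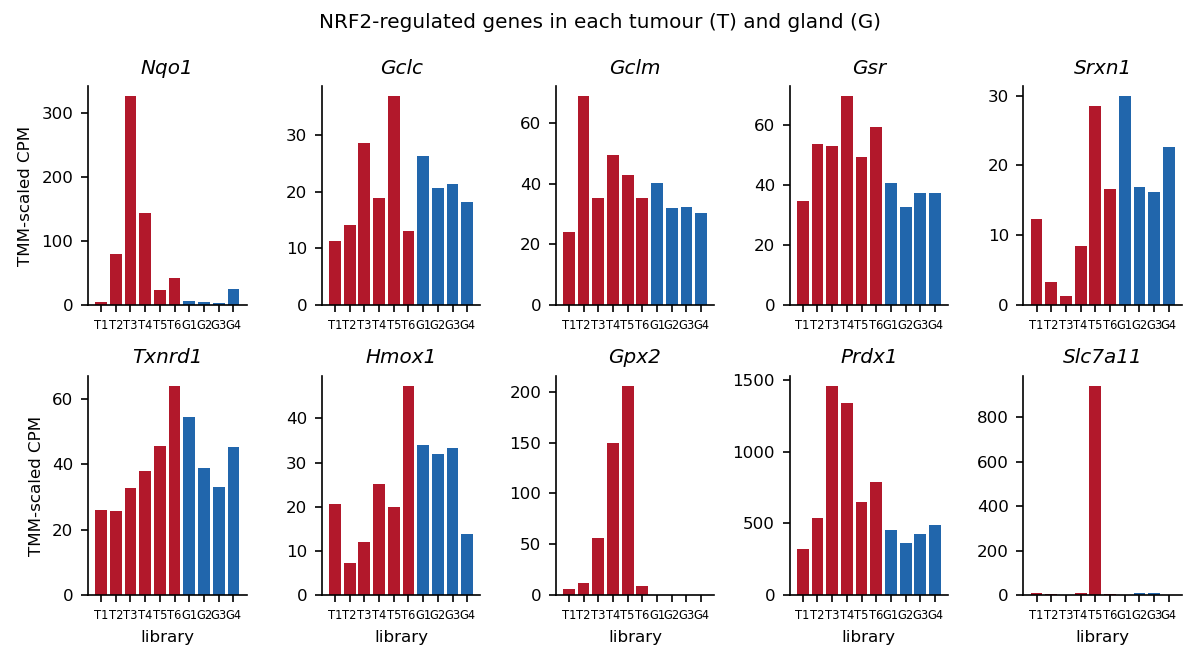
TMM-scaled CPM (linear axis from 0) of 10 NRF2-regulated genes in tumours T1 to T6 (red) and glands G1 to G4 (blue). The tumour with the highest level differs from gene to gene: T3 for Nqo1 and Prdx1, T5 for Gclc, Srxn1, Gpx2 and Slc7a11, and T6 for Txnrd1 and Hmox1.

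The peroxidases moved in both directions. Gpx2, a selenium-dependent glutathione peroxidase best known from the gut epithelium, had the largest rise of all members. Tumours 1 to 6 were at 5.69, 12.0, 56.3, 149, 205 and 8.62 CPM, against 0.0856, 0.0312, 0.0557 and 0.191 CPM in glands 1 to 4. Every tumour lay above every gland. The 4 glands held 1 to 3 reads each and 9 in all, so the ratio of the tumour mean to the pooled gland rate, 1080, has a 95% exact Poisson interval of 566 to 2350 for the gland count. The same ratio for the lowest tumour, tumour 1, was 83.9 (44.2 to 184), and both intervals cover counting error only. The fitted log2 fold change was 9.81 ± 1.54 (SE; adjusted p = 0.00460, edgeR). The call held in all 10 fits without 1 library, with adjusted p up to 0.0252. With 1 to 3 reads per gland, Gpx2 had enough reads to be tested only through the tumours. A gene admitted in that way could be called higher but not lower, so the separation and these fits do not test its direction. With no filter the log2 fold change was 9.83 (adjusted p = 0.00353, edgeR), with the same few gland reads.

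Gpx3, the secreted peroxidase of plasma and extracellular matrix, was the peroxidase with the largest fall. It was at 7.92, 119 and 344 CPM in tumours (lowest, median and highest), against 1839, 1282, 1033 and 882 CPM in glands 1 to 4. The groups did not overlap, and tumours 3 and 4 were the lowest. The log2 fold change was -3.09 ± 0.86 (SE; adjusted p = 0.0353, edgeR). The call was lost without tumour 1, 4 or 5 or gland 1, 2 or 3 (adjusted p up to 0.0928), with age as a covariate (adjusted p = 0.0745) and without tumours 1 and 6 and gland 4 (adjusted p = 0.0566).

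Gpx8, a membrane peroxidase of the endoplasmic reticulum, was at 9.25, 15.8 and 35.0 CPM in tumours, against 111, 60.9, 66.8 and 39.9 CPM in glands 1 to 4. All tumours lay below all glands (log2 fold change -1.83 ± 0.43, SE; adjusted p = 0.0207, edgeR), and the call was lost without gland 1 (adjusted p = 0.0750). Its relative in the same compartment, Gpx7, was at 1.78, 3.65 and 13.4 CPM in tumours and 20.1, 11.5, 13.3 and 12.3 CPM in glands 1 to 4. Gpx7 missed the threshold (-1.51 ± 0.55, SE; adjusted p = 0.0836, edgeR), with tumour 6 among the glands, and it passed without tumour 6 (-2.14, adjusted p = 0.0135). With all libraries it passed with DESeq2 (-1.54, adjusted p = 0.0334) and limma-voom (-1.88, adjusted p = 0.0266).

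The widely expressed peroxidases had differences within the spread of the libraries. Gpx1, of the cytosol and mitochondria, averaged 421 ± 148 CPM in tumours and 335 ± 114 CPM in glands (SD, n = 6 and 4; adjusted p = 0.579, edgeR). Gpx4, which reduces phospholipid hydroperoxides and holds back ferroptosis, averaged 508 ± 206 CPM in tumours and 621 ± 139 CPM in glands (SD, n = 6 and 4; adjusted p = 0.596, edgeR). Of the 31-base stretches in Gpx4 transcripts, 38.9% also occur in other genes, nearly all in the pseudogene Gpx4-ps2, so its count is uncertain. Gpx5 and Gpx6, known from epididymis and olfactory tissue, had 12 and 2 reads over all 10 libraries.

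Of the 7 peroxiredoxins and sulfiredoxin, 1 passed the test (14.3%, near the 15.1% of all genes), and 3 fold changes were positive and 4 negative. Prdx4, the peroxiredoxin of the endoplasmic reticulum, was at 30.8, 62.5, 258, 182, 56.3 and 60.05 CPM in tumours 1 to 6, against 32.99, 23.9, 25.3 and 19.3 CPM in glands 1 to 4. Tumours 2 to 6 lay above every gland and tumour 1 within their range. The log2 fold change was 2.09 ± 0.60 (SE; adjusted p = 0.0386, edgeR). The call did not survive the loss of any 1 gland or of tumour 3 or 4 (adjusted p up to 0.102), and was also lost with limma-voom (adjusted p = 0.0613), no filter (adjusted p = 0.0535) and age as a covariate (adjusted p = 0.0623).

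Prdx1 and Prdx2, the cytosolic peroxiredoxins, had positive differences of 0.98 ± 0.46 and 0.88 ± 0.45 on the log2 scale (SE; adjusted p = 0.158 and 0.191, edgeR). For Prdx1 the tumours lay at 323, 721 and 1456 CPM, against 456, 360, 426 and 486 CPM in glands 1 to 4, with tumour 1 below every gland and the other 5 above. Prdx2 was at 156, 269 and 667 CPM in tumours, against 213, 130, 146 and 256 CPM in glands 1 to 4. Tumour 3 was the highest and tumour 1 the lowest of the tumours for Prdx1, Prdx2 and Prdx4 alike. The mitochondrial Prdx3 averaged 106 ± 57.8 CPM in tumours and 151 ± 73.9 CPM in glands, and Prdx5 138 ± 19.9 CPM in tumours and 171 ± 53.3 CPM in glands (SD, n = 6 and 4; adjusted p = 0.404 and 0.423, edgeR). Prdx6, which has a single catalytic cysteine and uses glutathione, was at 59.8, 82.2 and 137 CPM in tumours, against 192, 146, 157 and 134 CPM in glands 1 to 4. It missed the threshold at -0.77 ± 0.28 (SE; adjusted p = 0.0850, edgeR), and passed without tumour 3 (adjusted p = 0.0408).

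Srxn1, sulfiredoxin, repairs over-oxidised peroxiredoxins. It was at 12.3, 3.31, 1.39, 8.43, 28.6 and 16.7 CPM in tumours 1 to 6, against 29.9, 16.9, 16.2 and 22.7 CPM in glands 1 to 4. Tumour 3, with the highest Nqo1, Prdx1, Prdx2 and Prdx4, was the lowest for Srxn1, and tumour 5 was the highest of the tumours (log2 difference -0.86 ± 0.65, SE; adjusted p = 0.363, edgeR).

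In the thioredoxin system the mitochondrial reductase fell. Txnrd2 was at 5.12, 6.77 and 7.64 CPM in tumours, against 23.8, 14.8, 14.7 and 16.3 CPM in glands 1 to 4, a narrow range in both groups with no overlap. Its log2 fold change was -1.40 ± 0.27 (SE; adjusted p = 0.00979, edgeR), and the call held in all 10 fits without 1 library (adjusted p up to 0.0431). Txn1, cytosolic thioredoxin, was at 124, 249 and 608 CPM in tumours, against 160, 112, 129 and 122 CPM in glands 1 to 4. Tumours 2 to 6 lay above every gland, and the difference of 1.17 ± 0.43 missed the threshold (SE; adjusted p = 0.0857, edgeR). It passed without tumour 1 (adjusted p = 0.0408), with DESeq2 (adjusted p = 0.0410) and under upper-quartile scaling (adjusted p = 0.0453). Txnrd1, the cytosolic reductase and an NRF2 target, averaged 38.7 ± 14.5 CPM in tumours and 43.0 ± 9.13 CPM in glands (SD, n = 6 and 4; adjusted p = 0.748, edgeR). Txnrd3, a form enriched in testis, averaged 11.1 ± 3.91 CPM in tumours and 12.9 ± 3.77 CPM in glands (SD, n = 6 and 4; adjusted p = 0.667, edgeR).

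**Figure D3:**
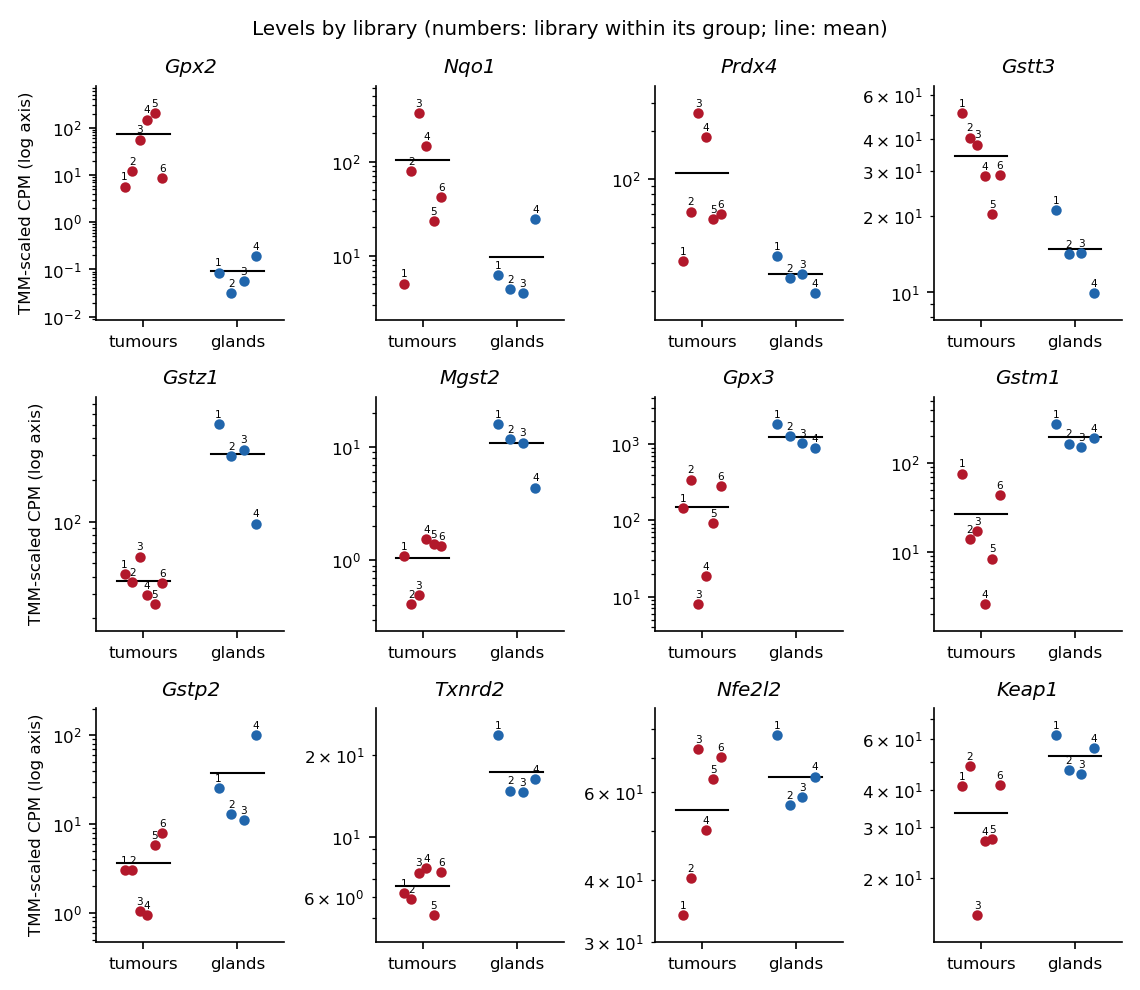
TMM-scaled CPM on a log axis for 12 members, with tumours left of glands, a number for each library and a line at the mean. Gpx2 lies higher, and Gstz1, Mgst2, Gpx3, Gstm1, Gstp2 and Txnrd2 lie lower, in every tumour than in any gland, while Nqo1, Nfe2l2 and Keap1 overlap.

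Glutathione S-transferases couple glutathione to electrophiles, and 15 of the 17 tested cytosolic genes had a negative fold change. Of the 17, 5 were called lower and 1 higher, where 8.19% of all genes fell and 6.89% rose, so the single rise is near the background. The median of the 17 was -1.51. Gstz1, of the zeta class, is also the maleylacetoacetate isomerase of tyrosine breakdown. It was at 41.9, 36.5, 55.9, 29.4, 25.3 and 36.2 CPM in tumours 1 to 6, against 505, 298, 330 and 96.4 CPM in glands 1 to 4. The tumours formed a narrow band below every gland, and gland 4 lay far below the other glands. The log2 fold change was -3.03 ± 0.42 (SE; adjusted p = 0.00329, edgeR), the lowest p among the members. The call held in all 10 fits without 1 library (adjusted p up to 0.0136), and without gland 4 the log2 fold change was -3.40. Gstz1 shares 11.3% of its 31-base stretches with other genes, mostly Pomt2.

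In the mu class, the members did not move alike. Gstm1 was at 2.57, 15.5 and 76.3 CPM in tumours, against 275, 165, 152 and 193 CPM in glands 1 to 4. Tumours 1 and 6, the libraries with salivary transcripts, were the highest tumours, and all tumours lay below all glands (log2 fold change -2.86 ± 0.74, SE; adjusted p = 0.0272, edgeR). The call was lost without tumour 2, gland 1 or gland 2 (adjusted p up to 0.0755). Gstm4 was at 4.25, 6.59 and 8.36 CPM in tumours, against 23.5, 14.2, 15.7 and 14.8 CPM in glands 1 to 4 (log2 fold change -1.44 ± 0.29, SE; adjusted p = 0.0121, edgeR). Without gland 1 its adjusted p was 0.05 after rounding, at the threshold but not past it.

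Gstm2 had no overlap between the groups, with 1.66, 12.3 and 57.0 CPM in tumours and 120, 84.0, 83.0 and 81.0 CPM in glands 1 to 4, yet missed the threshold (-2.24 ± 0.87, SE; adjusted p = 0.0999, edgeR). Tumour 1 was its highest tumour, and without tumour 1 it passed at -2.94 (adjusted p = 0.0404). With DESeq2 it passed at -2.25 (adjusted p = 0.0386) and with limma-voom at -3.64 (adjusted p = 0.0139). Gstm6 and Gstm7 had differences of -2.56 ± 0.93 and -1.95 ± 1.12 (SE; adjusted p = 0.0827 and 0.240, edgeR), both below 10 CPM in every library. Gstm6 passed with DESeq2 (adjusted p = 0.0175). Gstm7 passed with limma-voom (-3.79, adjusted p = 0.0375), without tumour 1 (-3.26, adjusted p = 0.0497) and without tumours 1 and 6 (-4.12, adjusted p = 0.0208). Gstm5 was the exception. It was at 25.2, 37.9 and 112 CPM in tumours, against 42.9, 25.6, 24.1 and 98.4 CPM in glands 1 to 4, a log2 difference of -0.04 ± 0.52 (SE; adjusted p = 0.961, edgeR), and 0.52 without gland 4. Whether Gstm5 differed from its relatives was not tested. Of the 31-base stretches in Gstm1 transcripts, 28.8% occur in other genes, mainly the pseudogene Gstm2-ps1.

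The pi class holds near-copies. Gstp2 was at 0.936, 3.03 and 7.83 CPM in tumours, against 25.3, 13.0, 11.1 and 101 CPM in glands 1 to 4. All tumours lay below all glands, and gland 4 was the highest library (log2 fold change -3.37 ± 0.77, SE; adjusted p = 0.0179, edgeR). Without gland 4 the fold change was -2.24 and the call was lost (adjusted p = 0.0520). Gstp1, the main transferase of many epithelia, was at 55.3, 73.6 and 132 CPM in tumours, against 140, 102, 110 and 190 CPM in glands 1 to 4, and missed the threshold at -0.77 ± 0.31 (SE; adjusted p = 0.114, edgeR). It passed without tumour 3 (adjusted p = 0.0404). Of the 31-base stretches in Gstp2, 54.8% are also in Gstp1, so the division of reads between them is uncertain. Gstp3 was at 11.1 CPM in tumour 5 and 0 to 0.651 CPM in the other tumours, against 0.514, 5.17, 3.90 and 0.127 CPM in glands 1 to 4.

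Among theta-class genes, Gstt1 and Gstt3 changed in opposite directions. Gstt3 was at 50.8, 40.6, 38.2, 28.6, 20.3 and 28.9 CPM in tumours 1 to 6, against 21.1, 14.1, 14.3 and 9.92 CPM in glands 1 to 4. Only tumour 5 reached the range of the glands (log2 fold change 1.22 ± 0.32, SE; adjusted p = 0.0306, edgeR). That call was lost without tumour 2 or gland 2, 3 or 4 (adjusted p up to 0.0879), with no filter (adjusted p = 0.0599) and without tumours 1 and 6 and gland 4 (0.85, adjusted p = 0.0954). Gstt1 was at 5.27, 11.01 and 27.9 CPM in tumours, against 77.8, 50.7, 57.0 and 17.2 CPM in glands 1 to 4. Tumour 1 lay above gland 4, and the other tumours lay below every gland (log2 fold change -2.02 ± 0.52, SE; adjusted p = 0.0269, edgeR). The Gstt1 call was lost without tumour 4 or gland 1, 2 or 3 (adjusted p up to 0.0872) and with age as a covariate (-1.50, adjusted p = 0.0525). Gstt2 averaged 11.9 ± 6.96 CPM in tumours and 23.7 ± 10.3 CPM in glands (SD, n = 6 and 4; adjusted p = 0.157, edgeR).

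The alpha and omega classes gave no call. Gsta3 was at 0.0989, 3.02 and 13.8 CPM in tumours, against 38.4, 30.7, 34.9 and 10.7 CPM in glands 1 to 4, with tumour 1 highest and tumours 3 and 4 lowest (log2 difference -2.77 ± 1.00, SE; adjusted p = 0.0820, edgeR). It passed without tumour 1 (-3.62, adjusted p = 0.0335), with DESeq2 (-2.76, adjusted p = 0.0212) and with limma-voom (-4.23, adjusted p = 0.0161). Gsta4, which conjugates the lipid peroxidation product 4-hydroxynonenal, was at 107 CPM in tumour 5 and 7.54 to 34.0 CPM in the other tumours, against 81.2, 48.1, 52.2 and 34.7 CPM in glands 1 to 4. Gsto1, an omega-class enzyme that also reduces dehydroascorbate, was at 33.01, 55.4 and 100 CPM in tumours, against 38.2, 24.0, 24.5 and 35.8 CPM in glands 1 to 4 (0.93 ± 0.35, SE; adjusted p = 0.0888, edgeR). Under upper-quartile scaling Gsto1 passed (adjusted p = 0.0427). Gsto2 was below 5 CPM in every library (-1.51 ± 0.60, SE; adjusted p = 0.107, edgeR) and passed with DESeq2 (adjusted p = 0.0429).

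The microsomal transferases are membrane proteins unrelated in sequence to the cytosolic ones. Mgst2, which can also make leukotriene C4, was at 0.408, 1.22 and 1.54 CPM in tumours, against 16.0, 11.8, 10.97 and 4.39 CPM in glands 1 to 4. Every tumour lay below every gland (log2 fold change -3.37 ± 0.51, SE; adjusted p = 0.00432, edgeR), and the call held in all 10 fits without 1 library (adjusted p up to 0.0191). Mgst3 was at 13.6, 24.4 and 57.5 CPM in tumours, against 92.5, 69.7, 69.7 and 253 CPM in glands 1 to 4 (-2.03 ± 0.50, SE; adjusted p = 0.0233, edgeR). Its call was lost without gland 1 (adjusted p = 0.0522) or gland 4 (-1.43, adjusted p = 0.0614), and without tumours 1 and 6 and gland 4 (-1.29, adjusted p = 0.0711). Mgst1 was at 60.4, 225 and 532 CPM in tumours, against 899, 590, 628 and 271 CPM in glands 1 to 4, and missed the threshold (-1.16 ± 0.59, SE; adjusted p = 0.187, edgeR). Tumours 3, 4 and 6 lay above gland 4.

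**Figure D4:**
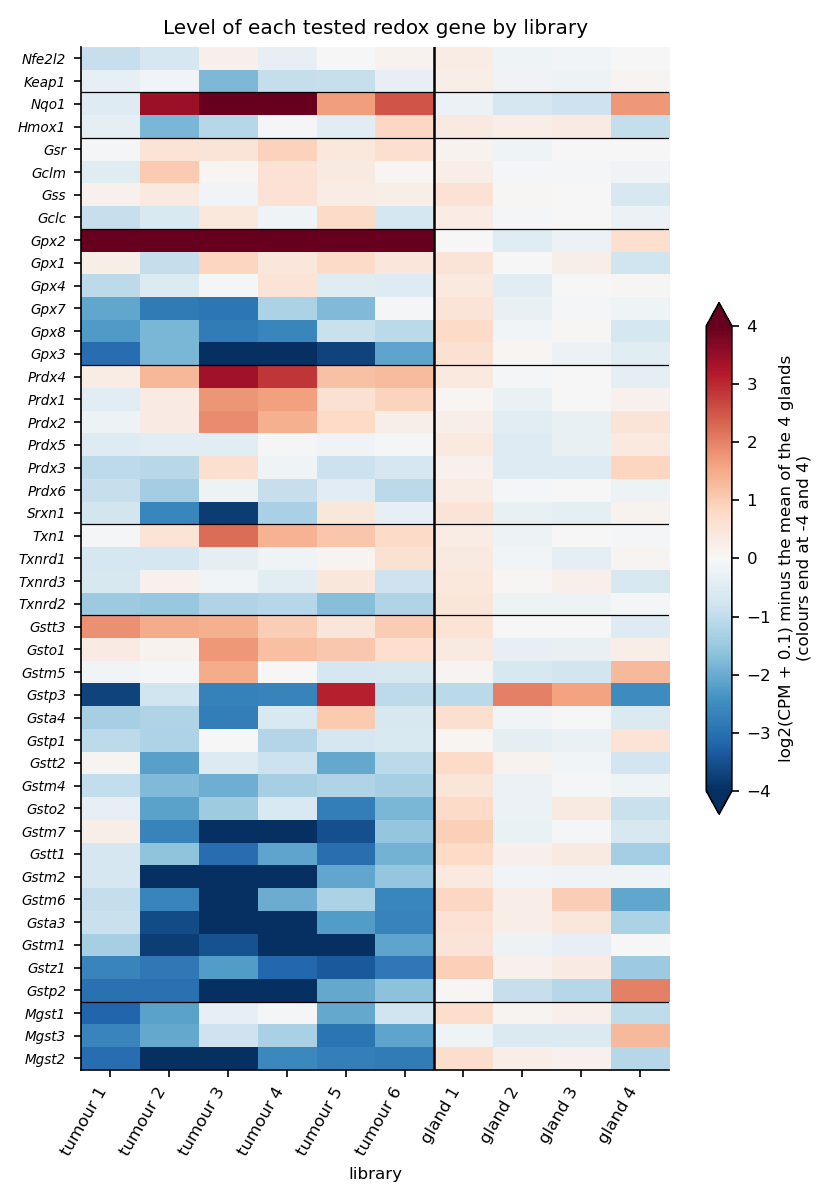
Each tested member (rows, grouped by role) in each library (columns), as log2(CPM + 0.1) minus the mean of the 4 glands. Tumour 3 and tumour 4 are red for Nqo1, Prdx1, Prdx2, Prdx4 and Txn1 and dark blue for Gpx3, Gstm2 and Gsta3, while gland 4 stands apart from the other glands for Nqo1, Gstp2 and Mgst3.

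The tumours differed in which members they led. Tumour 3 was the highest tumour for 14 of the 45 tested members and the lowest for 13. Its highs were in Nfe2l2, Nqo1, Txn1, Gpx1, Prdx1, Prdx2, Prdx3, Prdx4, Prdx6, Gsto1, Gstm5, Gstp1, Gstz1 and Mgst3, and its lows included Keap1, Srxn1, Gpx3, Gpx7 and Gpx8. Tumour 1 was the highest for 10 members, of which all are cytosolic transferases, and the lowest for 14, among them Nqo1, Gclc, Gclm, Prdx1 and Txn1. Tumour 5 was the highest for 7, namely Gclc, Gpx2, Gpx8, Gsta4, Gstp3, Srxn1 and Txnrd3. Summed adipocyte markers were 1125, 72.0, 47.3, 40.8, 191 and 1503 CPM in tumours 1 to 6. Tumour 4, with the lowest sum, was the lowest tumour for 2 of the 45 members. Summed basal and myoepithelial markers were 4447 CPM in tumour 5, against 116 to 1289 CPM in the other tumours. Salivary markers took 45.0% of the counts of tumour 1, whose TMM factor was 0.422. The part of such differences in these orders was not tested.

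Genes that act with the members were read from 5 lists, of which the pairs that share Slc7a11, Abcc1 or Msrb1 overlap, and most of their calls were falls. Of 14 partners and regulators of NRF2, 2 rose and 2 fell, with a median log2 fold change of -0.03, where 6.89% of all genes rose and 8.19% fell. Nfe2l3, a relative of NRF2, was at 2.47, 17.5 and 31.2 CPM in tumours, against 2.83, 1.73, 1.504 and 2.48 CPM in glands 1 to 4, and rose by 3.04 ± 0.61 on the log2 scale (SE; adjusted p = 0.0114, edgeR). Nfe2l3 in tumour 1 was as low as in the glands. Nfe2l1, another relative, fell by 1.74 on the log2 scale, with 86.7 ± 27.96 CPM in tumours and 289 ± 64.8 CPM in glands (SD, n = 6 and 4; adjusted p = 0.00939, edgeR). Sqstm1, whose protein p62 binds KEAP1, was at 103 ± 20.4 CPM in tumours and 238 ± 80.4 CPM in glands (SD, n = 6 and 4; log2 fold change -1.21, adjusted p = 0.0207, edgeR). Its call was lost without gland 1 (adjusted p = 0.0635). Palb2, a repair protein that also binds KEAP1, rose by 1.46 ± 0.42 on the log2 scale (SE; adjusted p = 0.0389, edgeR). The Palb2 call was lost in 8 of 10 fits without 1 library, with adjusted p up to 0.116. It held without tumour 1 and without tumour 6, and was lost with no filter and with age as a covariate.

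Of 24 tested NRF2 target genes outside the members, 5 fell and none rose, with a median of -0.64, beside 8.19% of all genes that fell and 6.89% that rose. In the upward direction, 2 had an unadjusted p below 0.05 with edgeR. With DESeq2 1 was called and with limma-voom 1, in both cases Ephx1, an epoxide hydrolase named here after its values were seen. Ephx1 was at 53.95, 77.7 and 122.5 CPM in tumours, against 48.9, 50.3, 41.5 and 27.1 CPM in glands 1 to 4. All tumours lay above all glands, and it just missed the threshold (log2 difference 0.95 ± 0.29, SE; adjusted p = 0.0503, edgeR). Aox1, aldehyde oxidase, was at 0.346, 2.38 and 5.77 CPM in tumours, against 124, 65.5, 57.3 and 26.3 CPM in glands 1 to 4 (log2 fold change -4.58 ± 0.68, SE; adjusted p = 0.00397, edgeR). Me1, malic enzyme, which supplies NADPH, was at 21.5, 61.6 and 101 CPM in tumours, against 834, 626, 698 and 427 CPM in glands 1 to 4 (-3.33 ± 0.42, SE; adjusted p = 0.00224, edgeR). Both separated the groups fully. G6pdx, the entry enzyme of the pentose phosphate pathway, fell by 2.10 on the log2 scale (adjusted p = 0.0164, edgeR), although gland 4, at 37.3 CPM, lay within the tumours, which were at 19.4 to 55.0 CPM. Without gland 1 its call was lost (adjusted p = 0.0589), and so it was with age as a covariate. Malic enzyme and the pentose phosphate genes also serve fat synthesis in adipocytes, whose markers fell in the same libraries, and that part was not tested.

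In glutathione supply and breakdown, 4 of 18 genes fell and 1 rose (median -0.32), where 8.19% of all genes fell and 6.89% rose, so the single rise is near the background. Slc1a5, a glutamine transporter, was at 24.6, 39.2 and 92.2 CPM in tumours, against 1011, 620, 670 and 121 CPM in glands 1 to 4 (log2 fold change -3.61 ± 0.58, SE; adjusted p = 0.00523, edgeR). Oplah, which returns glutamate from 5-oxoproline, and Cth, which makes cysteine from cystathionine, had log2 fold changes of -2.84 and -1.91 (adjusted p = 0.00535 for Oplah and 0.0227 for Cth, edgeR). The Cth call was lost without gland 1 (adjusted p = 0.0756). Ggt6, a gamma-glutamyltransferase relative, rose by 2.91 ± 0.85 on the log2 scale (SE; adjusted p = 0.0417, edgeR), a call lost in 8 of 10 fits without 1 library, all but those without tumour 1 or 3 (adjusted p up to 0.119). It was also lost without tumours 1 and 6 and gland 4, and with limma-voom, no filter or age as a covariate.

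Slc7a11, the cystine importer that feeds glutathione synthesis, is named after its values were seen. It was at 8.36, 4.74, 1.93, 8.53, 938 and 6.30 CPM in tumours 1 to 6, against 0.885, 11.4, 9.52 and 2.29 CPM in glands 1 to 4. Tumour 5 had 50429 reads and the other tumours 78 to 492, so the fitted log2 difference of 4.74 ± 2.03 (SE; adjusted p = 0.130, edgeR) came from that library and was -0.01 without it. Also chosen after their values were seen, Cbr3 and Aldh3a1, a carbonyl reductase and an aldehyde dehydrogenase, were at 86.4 and 24.1 CPM in tumour 5. In the other tumours they were at most 9.12 and 1.23 CPM, and in glands at most 21.2 and 1.28 CPM. Ptgr1, a prostaglandin reductase, was instead highest in tumour 4, at 88.8 CPM, against 21.6 CPM or less in the other tumours and 13.2 CPM or less in glands. For Nqo1, at 23.2 CPM, tumour 5 was lower than every other tumour except tumour 1.

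Of 20 other thiol and peroxide enzymes, 5 fell and none rose (median -0.50), where 8.19% of all genes fell and 6.89% rose, and 0 rose at an unadjusted p below 0.05 with edgeR, DESeq2 or limma-voom. Gstk1, the kappa-class transferase of mitochondria and peroxisomes, fell by 2.39 on the log2 scale, to 9.14 ± 3.58 CPM in tumours, against 47.7 ± 13.5 CPM in glands (SD, n = 6 and 4; adjusted p = 0.00397, edgeR). Txnip, which binds and inhibits thioredoxin, fell to 190 ± 82.6 CPM in tumours, against 808 ± 190 CPM in glands (SD, n = 6 and 4; log2 fold change -2.09, adjusted p = 0.0109, edgeR). Glo1, which uses glutathione to clear methylglyoxal, fell by 1.40 on the log2 scale (adjusted p = 0.0132, edgeR), a call lost without gland 1 (adjusted p = 0.0503). Among 13 genes of selenoprotein supply, 2 fell and none rose (median -0.14), against the same shares of all genes, and by the same tools 0 rose at an unadjusted p below 0.05. A count of 2 in so short a list is little above the background. Selenow, a small muscle-rich selenoprotein, fell by 1.64 on that scale (adjusted p = 0.0124, edgeR). It was highest in gland 4, the library with the most muscle transcripts, and the part of muscle was not tested. Without gland 4 the log2 fold change was -1.31 and the call held (adjusted p = 0.0186, edgeR). Sephs2, which makes selenophosphate, fell by 1.13 on that scale (adjusted p = 0.0299, edgeR), a call lost without tumour 2 or 4 or gland 1 or 2 (adjusted p up to 0.110), with no filter or with age as a covariate.

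**Figure D5:**
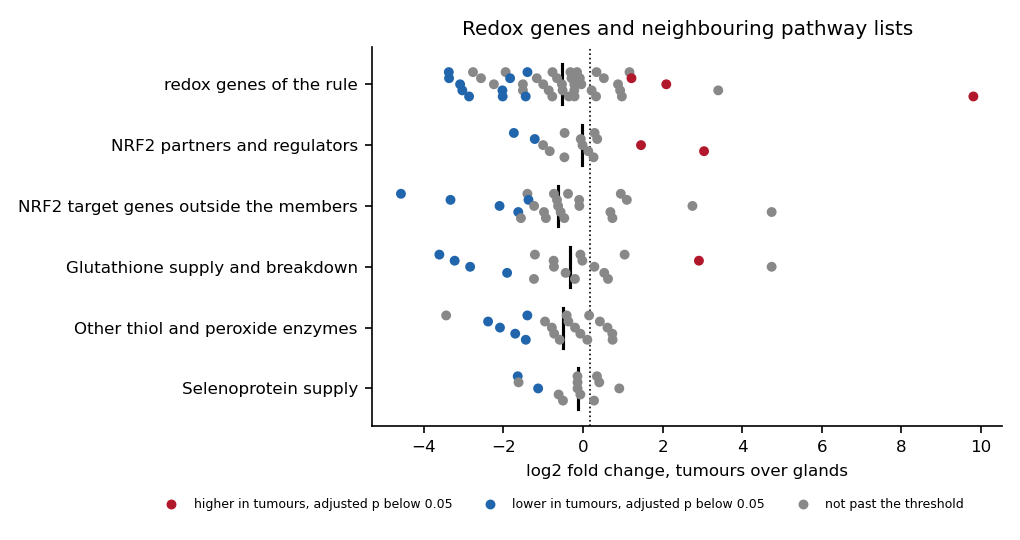
Log2 fold changes of tumours over glands for the tested genes of the redox set and of the 5 neighbouring lists, 1 point a gene, with a bar at each list's median and a dotted line at the median of all tested genes (0.17). The medians lie between -0.64 and -0.03.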

How the data were processed

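The authors deposited 1 table of whole-number read counts per gene symbol for 10 libraries. Salmon 1.2.0, DESeq and mm9 are named, without a role, in the submitters' processing notes. If the counts are rounded Salmon estimates, reads of near-copies were divided by its model. RNA was polyA-selected, per the labels. The 3 samples of purified epithelium were not analysed here.

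Counts were tested with edgeR 4.0.16 (R 4.3.3): filterByExpr, TMM scaling, quasi-likelihood F test, tumour against gland, Benjamini-Hochberg adjustment. Standard errors are the log2 fold change over the square root of F. Libraries are not stated to be separate animals, so p-values measure the spread between libraries. No pair of libraries was a copy (lowest chi-square per degree of freedom 37.8 over 45 pairs). Alternatives used RLE and upper-quartile factors, DESeq2 1.42.0, limma-voom (limma 3.58.1), other filters, age and fewer libraries.

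On simulated data of this design, 19527 genes were tested. Of these, edgeR found 0 of 67 genes set to 2-fold, 11 of 67 set to 4-fold and 38 of 66 set to 8-fold. It made 1 false call. Only the set genes were made to differ, a smaller share than was called in the data, so the adjustment was stricter there. They were drawn from genes with many expected reads, and otherwise libraries differed only in scale and random spread. These shares are therefore not recovery rates for the real comparison. A gene that misses the threshold may still differ. Shared 31-base stretches were counted in GENCODE M21 transcripts (GRCm38).

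The members and lists were chosen with earlier results of these data known. Named were the NRF2 and glutathione core genes, every called member and up to 3 called genes per list and direction, by adjusted p. Exceptions are marked.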

Additional observations from a re-analysis of the deposited data

Results flagged for a closer look

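Over 90 groups (45 members in tumours and in glands), 4 had a library at an end of the group set apart from the rest by Dixon's test on log2 CPM, where chance flags about 1 group in 20. Gpx1 in tumour 2 was at 164 CPM, below the other tumours at 372 to 581 CPM. Gstm5 in tumour 3 was at 112 CPM, above the other tumours at 25.2 to 39.3 CPM. Gstm2 in gland 1 was at 120 CPM, above the other glands at 81.0 to 84.0 CPM. Hmox1 in gland 4 was at 13.8 CPM, below the other glands at 31.9 to 34.0 CPM.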

How the results depend on the processing

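Of 19 alternatives, the count of called members, 13, left the range within 1.5 times with DESeq2 (20) and without gland 1 (6) or gland 2 (8), over a range of 6 to 17 without 1 library. The rises numbered 5 with upper-quartile factors, DESeq2 or without tumours 1 and 6, and 1 with no filter (1 to 5 without 1 library), against 3, and the falls 4 to 12 without 1 library, against 10. Over all genes, 3030 calls became 5252 with DESeq2, 1899 with age and 4640 without tumours 1 and 6 and gland 4 (1053 to 3521 without 1 library, with fewest without gland 1, and 2006, 1837, 1496 and 1769 without tumour 2, tumour 4, gland 2 and gland 3). The all-gene median, 0.17, shifted by 0.16 with upper-quartile factors, by 0.31 with no filter and by -0.10 with limma-voom. No called member changed sign. Of the uncalled genes, 8 did in at least 1 alternative, among them Slc7a11, Ptgr1 and Cbr3, each with a single high tumour. Gclc became 0.067 with upper-quartile factors and 0.18 without tumours 1 and 6 (-0.32 to 0.034 without 1 library). Gss became -0.026 without tumours 1 and 6 and gland 4 (-0.023 to 0.43 without 1 library). Gstm5 became 0.053 with upper-quartile factors, 0.032 with limma-voom, 0.16 without tumours 1 and 6 and 0.67 without these and gland 4 (-0.51 to 0.52 without 1 library). Gstp3 became 0.29 without tumours 1 and 6 (-3.06 to 0.47 without 1 library), and Txnrd1 0.0037 with upper-quartile factors. Slc7a11 became -0.022 with age (-0.0066 to 5.25 without 1 library), Cbr3 -0.43 with limma-voom and -1.12 with age (-1.10 to 1.13 without 1 library), and Ptgr1 spanned -0.034 to 1.33 without 1 library. The causes were not tested. No paired analysis was possible because the labels give the groups no shared replicate numbers. Members with few reads, such as Gpx2 in glands, are limited by depth.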
